A study of Danio rerio with 48 samples.

Results

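Heads of zebrafish larvae kept in 1.57 µM PFOS (perfluorooctane sulfonic acid), a surfactant that persists in the environment, were compared with heads of larvae kept in the vehicle alone at 5 days post fertilisation (dpf). All genes were compared between 6 pools exposed to 1.57 µM PFOS and 6 pools in 0.4% dimethyl sulfoxide (DMSO), which are 12 of the 48 libraries of a study with 3 PFOS concentrations and a vehicle group at 4 and 5 dpf. The pools were chosen by their labels. The larvae came from a mixed wild-type line, every group carried 0.4% DMSO, and exposure solutions were renewed daily until collection. Each library holds polyA RNA from 15 pooled heads cut in front of the swim bladder. Values are CPM, the counts scaled to a common library size, or log2 CPM, and a log2 fold change is 1.57 µM PFOS over DMSO. Genes were called at an adjusted p under 0.05 in edgeR's quasi-likelihood test with Benjamini-Hochberg adjustment over 20021 genes.

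At this age the larval gut opens and the yolk is running out, so the exocrine pancreas fills with digestive proenzymes while the liver makes plasma proteins and the enterocytes form a brush border. PFOS binds to plasma proteins and is carried by transporters of liver and gut, and in rodents it activates the lipid-sensing nuclear receptors of the PPAR family. The same days are a time of synapse formation in the larval brain and retina.

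Total counts lay between 17005960 and 28096497 in the PFOS pools and between 16965122 and 27475748 in the DMSO pools. Replicate D of the PFOS pools stood apart: its median correlation with the other libraries of its age was 0.941, against 0.960 to 0.977 in the other 11 pools. Of the 6 PFOS pools, replicate D was the highest in 33.5% of genes and the lowest in 35.7%, so results are given with and without it. The neuron list, 53 tested genes, averaged 6.42 ± 0.16 log2 CPM in PFOS heads and 6.28 ± 0.20 in DMSO heads (SD, n = 6 each). Of 28 posterior hox genes, which mark the trunk and tail, 18 were in the deposited counts. Of those, 1 had enough reads to be tested, with a log2 fold change of -0.56, and -0.37 without replicate D. Genes of liver, intestine and pancreas were nevertheless present in both groups, at levels that varied widely between pools of 1 group. Whether pools of 1 group came from different clutches is not in the labels. The p-values rest on the variation among pools within all 8 groups of the 48 libraries, not within these 12 pools alone. That variation may be technical.

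With all pools, 16 genes passed the threshold, which is 0.0799% of the genes tested, and all 16 were lower in PFOS heads. Of these, 15 belonged to the exocrine pancreas list and 1 was the apolipoprotein D gene apoda.2, which encodes a lipid-binding lipocalin. No gene was called higher. At an unadjusted p under 0.05, 420 genes were higher (2.1%) and 590 were lower (2.95%). Together they were 1010 of 20021 genes, and without any difference this threshold passes a share of about 0.05. Without replicate D the test called 10 genes of 20199 (0.0495%), all lower and all among the 16, while 161 genes were higher (0.797%) and 495 lower (2.45%) at an unadjusted p under 0.05. A fit of only these 12 pools called no gene, with 1191 at an unadjusted p under 0.05 and a lowest adjusted p of 0.772 in edgeR's test. The calls come from the fit of all 8 groups, which share 1 estimate of spread. That estimate includes the 4 dpf groups, where the exocrine pancreas list varied less between pools. Its SD was 1.07 log2 CPM in PFOS and 0.59 in DMSO heads at 4 dpf, against 1.67 and 3.03 at 5 dpf. The list was low at 4 dpf, at -1.98 and -1.88 log2 CPM, and the prior count of 2 narrows log2 spread at low levels. A fit of only the 5 dpf groups, which leaves out the 4 dpf libraries, also called no gene in edgeR's test. It had 889 genes at an unadjusted p under 0.05. That fit also rests on fewer libraries, and what the difference in spread does to the calls was not tested.

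The called genes encode most classes of pancreatic enzyme. They were the bile salt-activated lipases cel.1 and cel.2, the carboxypeptidases cpa1, cpa4, cpa5 and cpb1, the amylase amy2a, the trypsin genes prss1 and prss59.1, the elastases ela2, ela2l and ela3l, and the chymotrypsin-like ctrl. The zymogen granule gene sycn.2 (syncollin) and zgc:136461, for which the deposited table gives an identifier in place of a name, completed the 15. All 23 tested members of the list were lower in PFOS heads, with a median log2 fold change of -5.26 and a range of -6.82 to -1.62, and all 23 had an unadjusted p under 0.05. The median over all genes tested was 0.00.

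The lipase gene cel.2, on chromosome 21 from 11385031 to 11393980 (GRCz11), changed most. It had 0.00 CPM in the lowest PFOS pool, a median of 0.186 and a highest value of 0.599, against a lowest value of 0.0854, a median of 5.33 and a highest value of 116 CPM in DMSO pools. The PFOS pools were uniformly low, while the DMSO pools ranged over more than 3 orders of magnitude, and the groups overlapped because DMSO replicate E was as low as the PFOS pools. The log2 fold change was -6.82 ± 1.09 (SE), with an adjusted p of 0.00219 by edgeR's test, and -6.80 ± 1.17 without replicate D (adjusted p = 0.0121). Its neighbour cel.1 (chromosome 21, 11401247 to 11411366) fell by 5.35 on the log2 scale (adjusted p = 0.00578).

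The amylase gene amy2a, on chromosome 2 from 15612755 to 15626973, had 0.0290, 1.05 and 5.89 CPM in the lowest, median and highest PFOS pools, against 0.0427, 48.4 and 370 CPM in DMSO pools. In 5 of 6 DMSO pools it lay above every PFOS pool, and DMSO replicate E lay among the PFOS pools. Its log2 fold change was -5.61 ± 1.06 (adjusted p = 0.0109). The trypsin gene prss1 had 0.495, 1.91 and 7.13 CPM in PFOS pools, against 0.683, 19.7 and 164 CPM in DMSO pools, and fell by 4.09 on the log2 scale (adjusted p = 0.0109). The groups overlapped there too, through replicate E.

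Several of the called genes are close neighbours. The carboxypeptidase genes cpa1 and cpa5 lie side by side on chromosome 25 (18448186 to 18454017 and 18459924 to 18470696), with log2 fold changes of -5.72 ± 0.98 and -4.94 ± 0.86. The elastase genes ela2 and ela2l are neighbours on chromosome 8 (21376290 to 21381735 and 21366771 to 21372486), with -5.50 ± 1.18 and -5.12 ± 1.11. Neighbours of similar sequence can share reads, and the labels do not tell how such reads were divided. Sequences were not compared, so the separate values of these pairs, and of cel.1 and cel.2, are uncertain.

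The gene apoda.2 (chromosome 2, 37207461 to 37215990) followed the same pools as the enzymes. It had 0.00, 0.133 and 0.659 CPM in the lowest, median and highest PFOS pools, against 0.0854, 3.13 and 19.9 CPM in DMSO pools. Replicate B was its highest and replicate E its lowest DMSO pool, as for cel.2, amy2a and prss1. Its log2 fold change was -4.58 ± 0.88 (adjusted p = 0.0109), and -4.66 ± 0.95 without replicate D (adjusted p = 0.0385).

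The other 8 members of the pancreas list did not pass edgeR's test with all pools. DESeq2 called 3 of them (ctrb1, prss59.2 and pdia2, adjusted p = 0.0261, 0.0311 and 0.0357), and without DMSO replicate E edgeR's test called these and zgc:112160, zgc:92137 and c6ast4. With all pools in edgeR's test, the chymotrypsinogen gene ctrb1 had a log2 fold change of -5.45 ± 1.34 (adjusted p = 0.114), the trypsin gene prss59.2 had -5.66 ± 1.26 (adjusted p = 0.0542) and zgc:112160 had -5.43 ± 1.21 (adjusted p = 0.0528). The pancreas-specific disulfide isomerase pdia2 had -2.30 ± 0.53 (adjusted p = 0.0704). The phospholipase pla2g1b had -3.21 ± 0.96 and the protease inhibitor spink4 had -1.62 ± 0.56, with adjusted p-values of 0.649 and 0.923, and zgc:92137 and c6ast4 had -4.41 ± 1.00 and -4.59 ± 1.08.

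**Figure D1:**
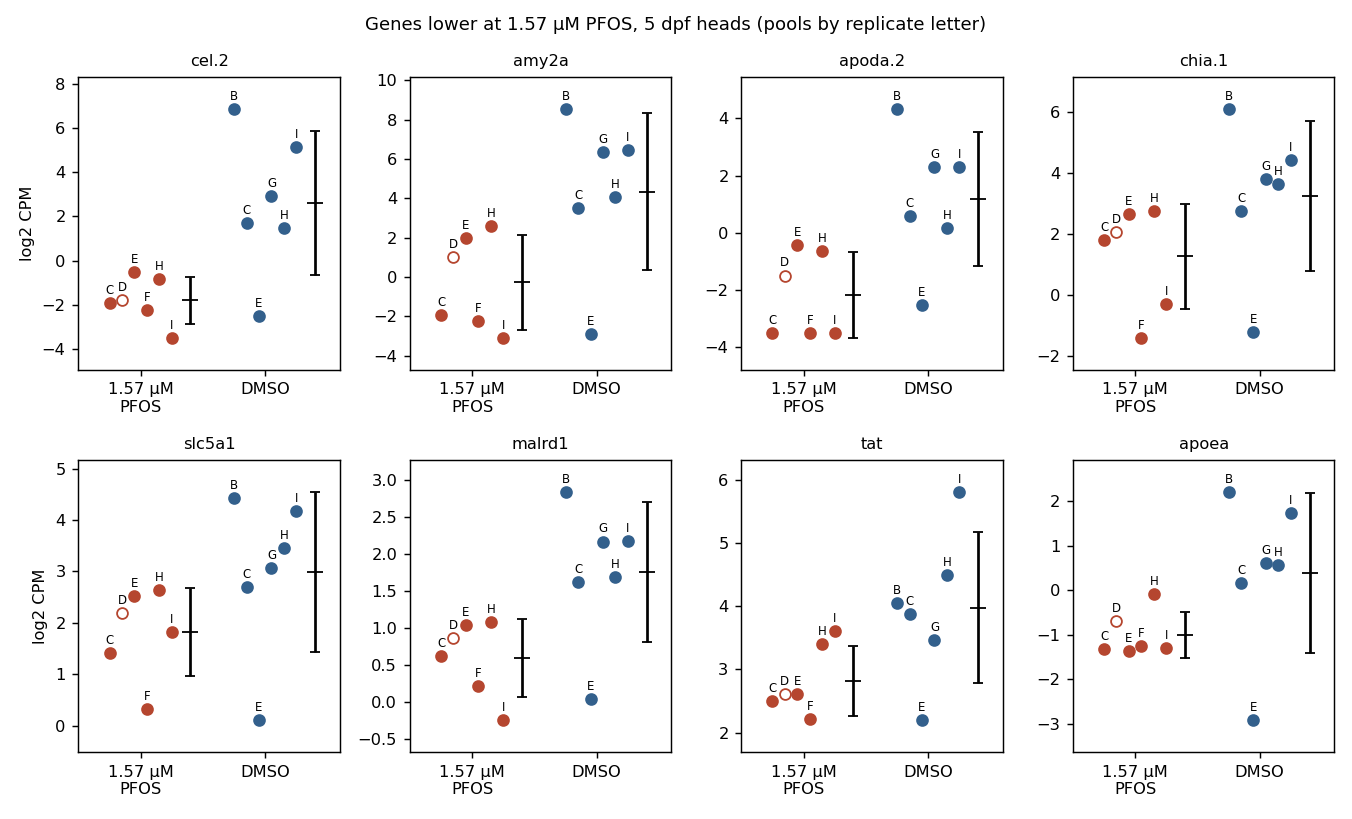
Level of 8 genes in each pool (vertical axes: log2 CPM). Red points are 1.57 µM PFOS pools and blue points are DMSO pools, marked with their replicate letters, the open point is PFOS replicate D, and black bars give the mean ± SD of 6 pools. For cel.2, amy2a and apoda.2 the PFOS pools lie below 5 of the 6 DMSO pools, and DMSO replicate E lies among or below the PFOS pools. The same DMSO pool is the lowest for chia.1, slc5a1, malrd1, tat and apoea.

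The spread of the pancreas list was a feature of both groups. Its level, taken as log2 CPM averaged over 23 genes, was -0.63 ± 1.67 in PFOS heads and 2.98 ± 3.03 in DMSO heads (SD, n = 6 each). The PFOS pools lay between -2.38 and 1.37 and the DMSO pools between -2.10 in replicate E and 6.80 in replicate B. All 6 PFOS pools were below the DMSO mean, and the ranges overlapped through replicate E alone. Leaving out DMSO replicate B left 1 call, cel.2 (adjusted p = 0.0494), whereas leaving out replicate E gave 40 calls. Leaving out PFOS replicate C, F or I left 4 calls each. In pooled tissue, fewer cells of a type and less RNA per cell cannot be told apart, and how much abdominal tissue each pool held was not tested.

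As a joint list, pancreas regulators and genes of protein entry into the endoplasmic reticulum were near the level of the DMSO heads. Among its 23 tested genes, 15 were higher and 8 lower, and none was called. The median was 0.09, and -0.07 without replicate D. The regulators alone were not summarised. The regulator hnf1ba, a homeobox gene of gut, pancreas and kidney, had a log2 fold change of -0.82 ± 0.41 (adjusted p = 0.923). The regulators gata4, bhlha15 and mnx1 had too few reads to be tested. They had 18, 21 and 13 reads over the PFOS pools and 48, 24 and 12 over the DMSO pools. Several other genes of this list are also active in brain, retina or other head tissue. The signal recognition particle gene srp14 had 1.21 ± 0.48, with a highest value of 2.27 CPM in PFOS replicate D, and 0.68 ± 0.47 without that pool (adjusted p = 0.923 and 0.998). The 37 tested genes of the unfolded protein response, which senses load in the endoplasmic reticulum, had a median of -0.04, and of 0.03 without replicate D, with 18 higher and 19 lower and none called.

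The 13 tested genes of the endocrine pancreas list had a median of 0.14, with 10 higher, 3 lower and none called. Several of these are also neuronal genes, such as the prohormone convertase pcsk2 (0.29 ± 0.20, adjusted p = 0.927) and the homeobox gene arxa (0.45 ± 0.32, adjusted p = 0.932). The somatostatin gene sst1.1, which is also expressed in brain, had 0.10 ± 0.31 (adjusted p = 0.983) and 0.00 ± 0.33 without replicate D. Other islet hormones had too few reads to be tested. Insulin (ins) had 5 reads in all over the 6 PFOS pools and 73 over the 6 DMSO pools, 35 of them in replicate B and 30 in replicate I. Glucagon gene gcga had 3 and 19 reads, gcgb had 25 and 50, and another somatostatin gene, sst2, had 4 and 14 in PFOS and DMSO pools. Replicates B and I were also the DMSO pools with the highest pancreas list level.

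Intestinal genes lay lower in PFOS heads as a group, although none of them was called. Of 38 tested members, 36 were lower and 2 higher, with a median log2 fold change of -0.87, and 22 had an unadjusted p under 0.05, all of them lower. Over all genes tested, 50.3% were higher, and 2.95% were lower at that threshold. The members were measured in the same pools and are not independent results. Without replicate D all 38 were lower, with a median of -0.96. The list's level was 1.73 ± 0.50 in PFOS heads and 2.56 ± 1.07 log2 CPM in DMSO heads. DMSO replicate E was again the lowest pool, at 0.64, and replicate B the highest, at 3.61.

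The 4 tested acidic chitinase genes were all lower, with a median of -1.89. The gene chia.1, whose product breaks down chitin in food, had 0.289, 3.72 and 6.67 CPM in the lowest, median and highest PFOS pools, against 0.342, 13.0 and 67.9 CPM in DMSO pools. The groups overlapped, with 4 of 6 DMSO pools above the highest PFOS pool and replicate E among the lowest. Its log2 fold change was -2.53 ± 0.58 (adjusted p = 0.0640). The other chitinases chia.2, chia.3 and chia.6 had -1.63 ± 0.64, -2.15 ± 0.66 and -0.44 ± 0.42 (adjusted p = 0.923, 0.650 and 0.939). The median of chia.6 was 1.08 CPM in PFOS pools and 1.07 CPM in DMSO pools. The chitin synthase gene chs1, which acts on the same polymer in the opposite direction, had -1.49 ± 0.48 (adjusted p = 0.799).

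The sodium and glucose cotransporter slc5a1, which takes up sugar at the brush border, had 1.16, 3.96 and 6.15 CPM in the lowest, median and highest PFOS pools, against 0.982, 9.56 and 21.6 CPM in DMSO pools. All 6 PFOS pools were below the DMSO mean, with overlap through replicate E (log2 fold change -1.50 ± 0.44, adjusted p = 0.526). The gene malrd1, known in mice for an intestinal control of bile acids, had 0.754, 1.59 and 2.02 CPM in PFOS pools, against 0.940, 3.78 and 7.08 CPM in DMSO pools. Its log2 fold change was -1.36 ± 0.33 (adjusted p = 0.110) and -1.42 ± 0.35 without replicate D (adjusted p = 0.161) in edgeR's test. DESeq2 called malrd1 with all pools (adjusted p = 0.0457).

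Other enzymes and motors of the gut surface were similar. The diamine oxidase gene aoc1, which degrades histamine, had -1.44 ± 0.35 (adjusted p = 0.114), the aminopeptidase A gene enpep had -0.98 ± 0.27 (adjusted p = 0.399), and the brush border myosin gene myo15b had -1.01 ± 0.28 (adjusted p = 0.431). The fatty acid binding protein gene fabp1b.1 had -1.71 ± 0.71, and cubn, a receptor for vitamin B12 uptake in gut and kidney, had -0.69 ± 0.26, both with an adjusted p of 0.923. Without DMSO replicate E, 19 genes outside the pancreas list passed, all lower, among them chia.1, aoc1, malrd1, slc5a1, myo15b, enpep, the peptide transporter slc15a1a, the intestinal alkaline phosphatase alpi.2 and the elastase annotated as CELA1. The last 3 were chosen after their values were seen. That elastase counts as outside the pancreas list only by its deposited name. Its log2 fold change with all pools was -5.02, beside a median of -5.26 in the pancreas list. Replicate E was the lowest DMSO pool for the intestine list, so its removal widens that difference. Without DMSO replicate B, the highest pool for that list, cel.2 was the only gene called.

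Liver genes lay lower by smaller amounts. Of 57 tested hepatocyte genes, 54 were lower and 3 higher, with a median of -0.67 with and without replicate D. With all pools, 8 had an unadjusted p under 0.05, all lower, where 2.95% of all genes tested were lower at that threshold. The level of the list was 4.37 ± 0.37 log2 CPM in PFOS heads and 4.93 ± 0.84 in DMSO heads, and DMSO replicate E was the lowest pool at 3.60. The tyrosine aminotransferase gene tat had 4.54, 6.00 and 12.1 CPM in the lowest, median and highest PFOS pools, against 4.48, 15.5 and 55.8 CPM in DMSO pools, with overlapping groups and a log2 fold change of -1.48 ± 0.43 (adjusted p = 0.526). The abundant apolipoprotein B gene apobb.1, which packages lipid into particles, had 152, 429 and 631 CPM in PFOS pools, against 310, 1095 and 1674 CPM in DMSO pools, and a log2 fold change of -1.43 ± 0.51 (adjusted p = 0.923).

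Plasma proteins and lipid carriers shared that direction. In the complement and coagulation list 41 of 43 genes were lower (median -0.59), and the examples with the smallest p included the lectin pathway protease masp1 (-0.83 ± 0.27, adjusted p = 0.821) and c8b of the membrane attack complex (-0.93 ± 0.38, adjusted p = 0.923). Among apolipoproteins 15 of 20 were lower (median -0.64), with apoda.2 the 1 called member. The apolipoprotein E gene apoea had -2.13 ± 0.66 (adjusted p = 0.664), and the fetuin gene ahsg1 had -1.09 ± 0.39 (adjusted p = 0.923).

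Several metabolic lists that overlap with liver and gut had medians below 0, and none of their members was called. The fatty acid binding protein list, which also overlaps with them, had a median of 0.35 with 6 of 9 genes higher. Without replicate D its median was -0.05, with 3 higher. For bile acid genes, 18 of 20 were lower (median -0.51), among them the bile salt export pump abcb11a (-1.20 ± 0.39, adjusted p = 0.821) and the conjugate exporter abcc2 (-0.94 ± 0.33, adjusted p = 0.923). Cytochrome P450 genes had -0.45 with 46 of 54 lower, including cyp2x9 (-1.56 ± 0.48) and cyp27b1, which activates vitamin D (-1.39 ± 0.43), each with an adjusted p of 0.650. Genes of tyrosine breakdown and gluconeogenesis had -0.33 with 20 of 28 lower, among them the pyruvate carboxylase pcxb (-0.94 ± 0.26, adjusted p = 0.367).

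Genes of the pathways that PFOS is studied for in rodents had medians nearer to 0. Of the PPAR and fatty acid oxidation genes 41 of 53 were lower (median -0.17) and none was called, and the lowest p belonged to the acyl-CoA synthetase acsl5 (-1.60 ± 0.50, adjusted p = 0.683). In cholesterol synthesis 21 of 29 were lower (median -0.20), including msmo1 (-0.63 ± 0.27) and sc5d (-0.93 ± 0.37), and lipogenesis and lipid transport had -0.26 with 22 of 30 lower. The triglyceride synthesis gene dgat2 had -1.26 ± 0.38 (adjusted p = 0.611) and the lipoprotein receptor ldlra had -0.83 ± 0.30 (adjusted p = 0.923).

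**Figure D2:**
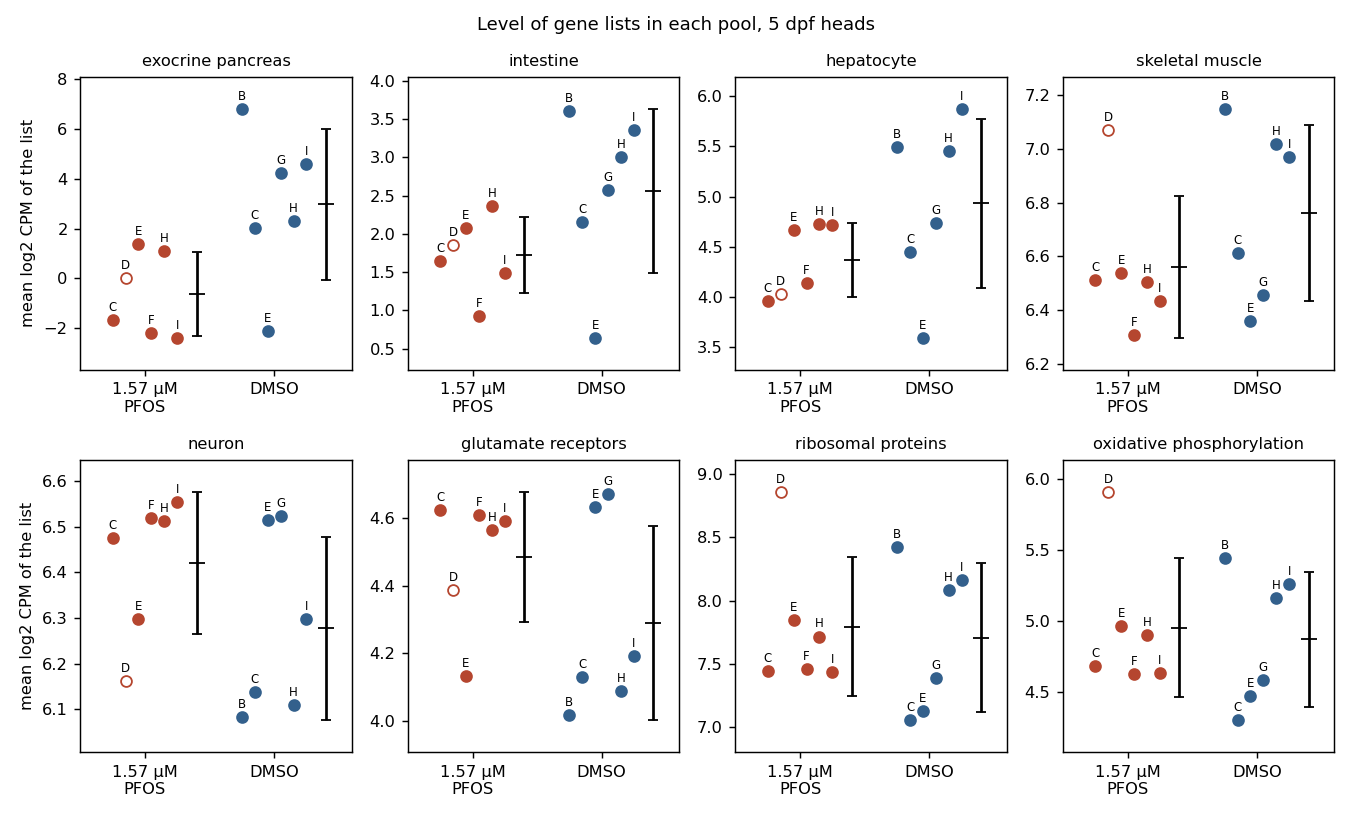
Level of 8 gene lists in each pool (vertical axes: log2 CPM averaged over the genes of the list). Red points are 1.57 µM PFOS pools and blue points are DMSO pools with their replicate letters, the open point is PFOS replicate D, and black bars give the mean ± SD of 6 pools. DMSO replicate E is the lowest DMSO pool for the exocrine pancreas (-2.10), intestine (0.64) and hepatocyte (3.60) lists and is among the higher pools for the neuron list. PFOS replicate D is the highest pool for ribosomal proteins (8.86) and oxidative phosphorylation (5.91).

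Stress programmes showed no called gene. For Nrf2 and antioxidant targets, 27 of 37 were lower (median -0.17), and 36 without replicate D (median -0.27). The 24 p53 targets had a median of -0.02 with all pools and 0.04 without replicate D. The medians with and without that pool were -0.04 and -0.05 for 45 heat shock genes, -0.09 in both cases for 21 genes of the corticosteroid response, and 0.04 and 0.01 for 43 immediate early genes, the rapid transcription factors of active cells. In the same order, neutrophil and inflammation genes had -0.18 and -0.24 over 21 genes, and macrophage and microglia genes had -0.09 and -0.22 over 26. Thyroid genes had -0.05 and -0.13 over 24, where the deiodinase dio3b, which inactivates thyroid hormone, had -0.67 ± 0.30 (adjusted p = 0.923). Clock activators had -0.06 and 0.00 over 20 genes, with arntl2 at -0.32 ± 0.13 with all pools (adjusted p = 0.923), and clock repressors had 0.04 and 0.09 over 21.

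Connective tissue, muscle and kidney genes lay somewhat lower. Of 65 skeletal muscle genes 51 were lower (median -0.19), and 58 were lower (median -0.33) without replicate D. The giant sarcomere genes ttn.1 and ttn.2, neighbours that may share reads, had -0.95 ± 0.36 and -0.99 ± 0.38 (adjusted p = 0.923 each). The calcium release channel ryr3 had -0.70 ± 0.26. In the heart list 22 of 26 genes were lower (median -0.33), among them the atrial peptide nppa (-0.91 ± 0.33) and the atrial myosin myh6 (-0.74 ± 0.30). For all of these the adjusted p was 0.923.

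In the collagen and fibroblast list 48 of 56 genes were lower (median -0.21), and 53 (median -0.32) without replicate D. The collagen gene col8a1a had 0.839, 1.33 and 5.26 CPM in the lowest, median and highest PFOS pools, against 1.88, 3.82 and 5.55 CPM in DMSO pools, and the highest PFOS value was replicate D. Its log2 fold change was -0.97 ± 0.37 with all pools (unadjusted p = 0.0122) and -1.53 ± 0.36 without replicate D (unadjusted p = 1.14e-04), with adjusted p-values of 0.923 and 0.134 in edgeR's test. The fibronectin gene fn1b had 385, 466 and 527 CPM in PFOS pools, against 405, 840 and 1100 CPM in DMSO pools, with replicate E again the low DMSO pool (-0.79 ± 0.24, adjusted p = 0.650).

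In the cartilage list 24 of 36 genes were lower (median -0.19), and 31 without replicate D (median -0.29), among them the aggrecan gene acana (-0.42 ± 0.20). The collagen gene col8a2 had -0.42 ± 0.18. Genes of the swim bladder and the pronephros, the larval kidney, were lower in 16 of 20 cases (median -0.28). The pronephric cadherin cdh17 had -1.09 ± 0.35 (adjusted p = 0.821). The endocytic receptor gene lrp2a (megalin) had 162, 212 and 230 CPM in PFOS pools, against 231, 251 and 308 CPM in DMSO pools, so the groups did not overlap, although the fold change was small (-0.30 ± 0.13, adjusted p = 0.923).

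**Figure D3:**
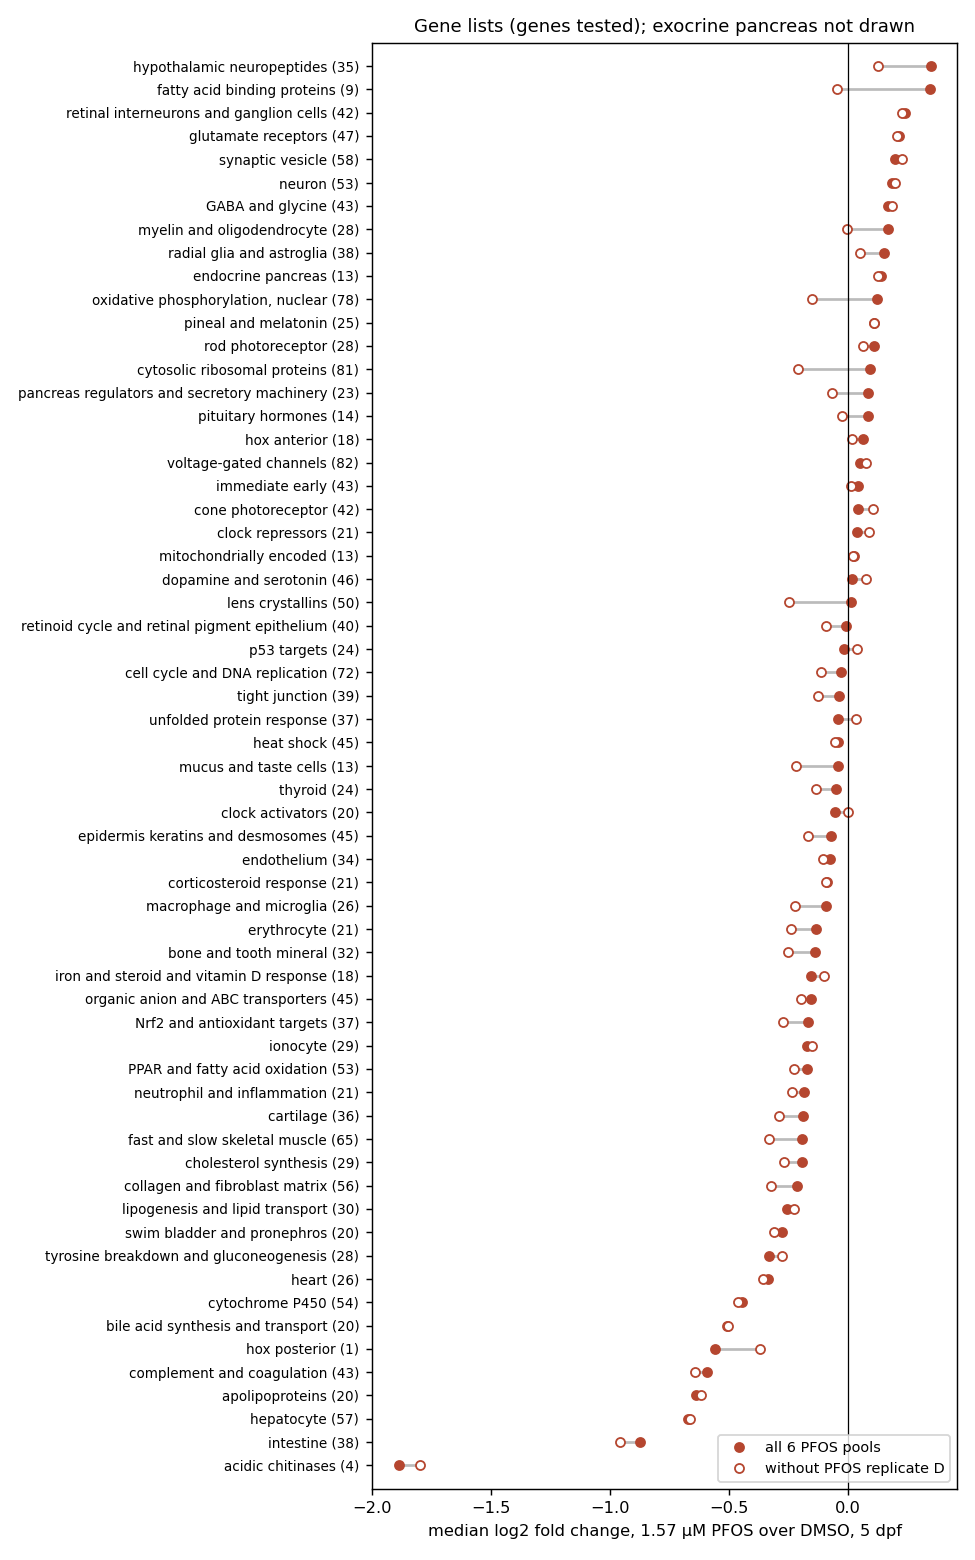
Median log2 fold change (1.57 µM PFOS over DMSO at 5 dpf, horizontal axis) of 61 gene lists, with the number of genes tested in brackets. Filled points use all 6 PFOS pools and open points leave out replicate D, and the exocrine pancreas list (-5.26 and -5.27) is not drawn. Intestine (-0.87 and -0.96) and hepatocyte (-0.67 in both) hardly move without replicate D, while ribosomal proteins (0.09 and -0.21) and oxidative phosphorylation (0.12 and -0.15) change sign.

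Several neuronal lists lay slightly higher in PFOS heads, without a called gene. Retinal interneuron and ganglion cell genes had a median of 0.24, with 38 of 42 higher. Glutamate receptor genes had 0.21 with 43 of 47 higher, synaptic vesicle genes had 0.20 with 48 of 58, pan-neuronal genes had 0.19 with 41 of 53, and genes of GABA and glycine signalling had 0.17 with 36 of 43. Across all genes tested, 50.3% were higher. Without replicate D these 5 medians were 0.23, 0.21, 0.23, 0.20 and 0.19, over a median of -0.02 for all genes. Voltage-gated channel genes had 0.05 with 53 of 82 higher, and dopamine and serotonin genes had 0.02 with 24 of 46 higher. Radial glia and astroglia genes had 0.15 with 30 of 38 higher, and 0.05 with 23 higher without replicate D.

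The single neuronal and glial genes with the smallest p did not pass the threshold. The kainate receptor gene grik1b had 21.5, 28.7 and 37.0 CPM in the lowest, median and highest PFOS pools, against 17.6, 21.1 and 27.4 CPM in DMSO pools (0.39 ± 0.14, adjusted p = 0.923). The ganglion cell RNA-binding protein gene rbpms2a had 53.1, 62.6 and 89.8 CPM in PFOS pools, against 31.5, 45.6 and 58.9 CPM in DMSO pools, and both genes overlapped between groups. It had 0.53 ± 0.20 with all pools and 0.58 ± 0.21 without replicate D. The glycine receptor gene glra4b had 0.71 ± 0.26, the amacrine cell factor tfap2b 0.28 ± 0.14, the synaptic vesicle gene sypa 0.47 ± 0.22, the tubulin-binding growth cone gene stmn2a 0.43 ± 0.18 and the glial glutamate transporter slc1a3b 0.38 ± 0.21. All had an adjusted p of 0.923.

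DMSO replicate B, the highest pool for pancreas genes, was the lowest for the neuron list, at 6.08 log2 CPM. Among DMSO pools, replicates G and E were the highest for the neuron list, both at 6.52. Leaving out DMSO replicate E moved the glutamate receptor median to 0.29 and the hepatocyte median to -0.83. Replicate E was the lowest DMSO pool for hepatocyte genes (3.60) and among the highest for glutamate receptors (4.63). Its removal could therefore only widen both differences in list level. Replicate B was the lowest DMSO pool for glutamate receptors (4.02), so its removal would narrow that difference, and the medians without it are not given. The part that the share of other tissue in a pool takes in the neuronal values was not tested.

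Hypothalamic neuropeptide genes had a median of 0.35, with 32 of 35 higher, but 0.13 with 24 higher without replicate D. The corticotropin-releasing hormone gene crhb, which starts the stress hormone axis, had 2.1, 2.42 and 4.26 CPM in the lowest, median and highest PFOS pools, against 1.00, 1.63 and 1.96 CPM in DMSO pools. The groups did not overlap, and the highest PFOS value was replicate D (0.79 ± 0.31, and 0.62 ± 0.31 without that pool, adjusted p = 0.923 and 0.998). The opioid peptide genes pnocb and penkb had 0.58 ± 0.24 and 0.62 ± 0.28 (adjusted p = 0.923 each). Myelin genes had a median of 0.17 and of 0.00 without replicate D, with mbpa at 0.55 ± 0.25 and 0.43 ± 0.26.

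Photoreceptor genes as lists stayed near 0, with medians of 0.04 for 42 cone genes and 0.11 for 28 rod genes, and of 0.10 and 0.06 without replicate D. The long-wavelength cone opsin opn1lw2 had 685, 778 and 2695 CPM in the lowest, median and highest PFOS pools, against 535, 648 and 789 CPM in DMSO pools. The highest value was replicate D, and the log2 fold change was 0.71 ± 0.25 with all pools and 0.19 ± 0.20 without it (adjusted p = 0.923 and 0.998). The outer segment gene prph2b had 0.38 ± 0.18 and 0.32 ± 0.19.

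Several higher values came from replicate D. The claudin gene cldn5b of tight junctions had a log2 fold change of 0.78 ± 0.29 with all pools and 0.16 ± 0.24 without replicate D, and the respiratory chain gene cox6c had 1.04 ± 0.47 and 0.27 ± 0.44. Cytosolic ribosomal protein genes had a median of 0.09 with 53 of 81 higher, and -0.21 with 10 higher without that pool. Nuclear genes of oxidative phosphorylation had 0.12 with 53 of 78 higher, and -0.15 with 12 higher. The 50 lens crystallin genes had 0.01 with all pools and -0.25 without replicate D. In all, 9 of 62 lists changed the sign of their median when replicate D was left out.

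Outside the pancreas list, 14 genes had all 6 PFOS pools above all 6 DMSO pools (0.0699% of genes tested) and 23 had all PFOS pools below (0.115%). Without replicate D these counts were 33 (0.165%) and 43 (0.215%), and leaving out a pool can only keep or raise such counts. Among so many genes some lack overlap by chance alone, and the counts were not tested against that number. The higher genes with a name and a mean of at least 1 log2 CPM that differed most were crhb, ubash3bb, foxb1a, ankrd54, dusp4 and rabgef1. None of them passed the adjusted threshold.

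Among higher genes with a name and a mean of at least 1 log2 CPM, the ankyrin repeat gene ankrd54 had the smallest p. It had 6.93, 7.42 and 12.5 CPM in the lowest, median and highest PFOS pools, against 4.52, 5.91 and 6.29 CPM in DMSO pools. The highest value was replicate D, and the fold change was 0.55 ± 0.15 with all pools (unadjusted p = 4.78e-04, adjusted p = 0.259) and 0.39 ± 0.14 without it (adjusted p = 0.998). The MAP kinase phosphatase gene dusp4, which is induced by and limits ERK signalling, had 10.7, 13.3 and 16.4 CPM in PFOS pools, against 8.98, 9.96 and 10.4 CPM in DMSO pools. Its log2 fold changes with and without replicate D were 0.46 ± 0.14 and 0.42 ± 0.15 (adjusted p = 0.650 and 0.998).

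The protein phosphatase gene ubash3bb had 2.75, 2.91 and 3.30 CPM in the lowest, median and highest PFOS pools, against 1.21, 2.15 and 2.4 CPM in DMSO pools. Its PFOS pools were close together, and the fold change was 0.56 ± 0.18 with all pools and 0.55 ± 0.19 without replicate D (adjusted p = 0.821 and 0.998). The forkhead gene foxb1a had 0.56 ± 0.24 and 0.42 ± 0.24, and rabgef1, an activator of the endosomal GTPase Rab5, had 0.40 ± 0.14 and 0.27 ± 0.13. The thioesterase gene lypla2, which removes palmitate from proteins, had 0.48 ± 0.14 and 0.39 ± 0.14.

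The remaining higher genes with a name and the smallest p included the adaptor subunit ap5s1 (0.79 ± 0.23), ankrd46a (0.55 ± 0.16) and tmem222a (0.97 ± 0.32). To these came nacc1a (0.72 ± 0.23), the proton pump subunit atp6v0b (0.57 ± 0.19) and sgsm3 (0.35 ± 0.12). Their adjusted p-values ranged from 0.464 to 0.883. Replicate D was the highest PFOS pool for ap5s1, ankrd46a, tmem222a and atp6v0b. Without it these had 0.56 ± 0.22, 0.38 ± 0.15, 0.37 ± 0.27 and 0.37 ± 0.18. The genes that came forward without replicate D were the phosphatase subunit ppp1cab (0.35 ± 0.16 with all pools and 0.47 ± 0.15 without), the GTPase arf3a (0.55 ± 0.24 and 0.68 ± 0.23) and the splicing-associated ess2 (0.36 ± 0.14 and 0.39 ± 0.14). None of them was called without that pool, where arf3a and ess2 had an adjusted p of 0.998 in edgeR's test.

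**Figure D4:**
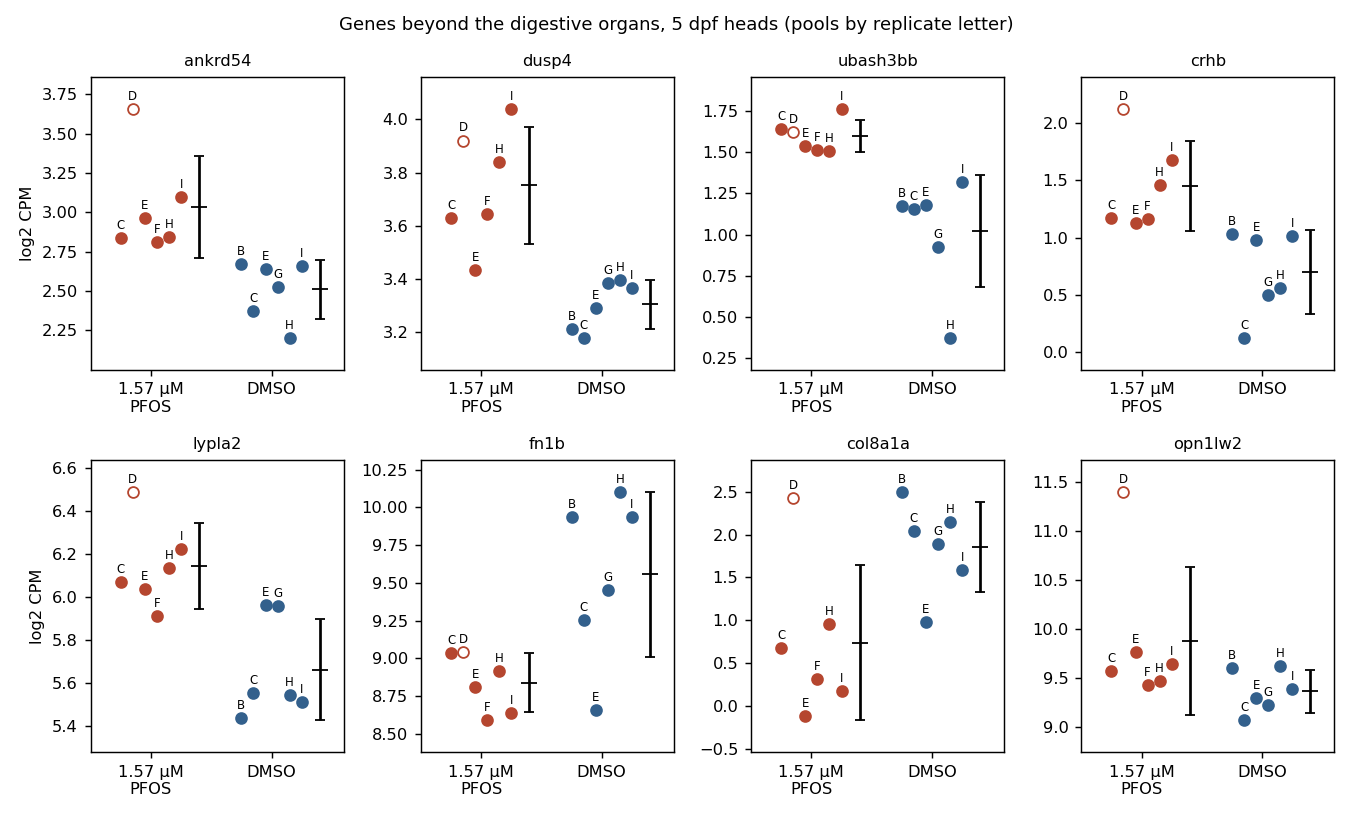
Level of 8 genes outside the pancreas list in each pool (vertical axes: log2 CPM). Red points are 1.57 µM PFOS pools and blue points are DMSO pools with their replicate letters, the open point is PFOS replicate D, and black bars give the mean ± SD of 6 pools. The PFOS pools of ankrd54, dusp4, ubash3bb and crhb lie above all DMSO pools, and replicate D alone carries most of the difference of opn1lw2 (0.71 with it and 0.19 without it).

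Of the 23 lower genes without overlap, 7 had a mean of at least 1 log2 CPM and a name, not an identifier. The gene lrp2a is 1 of them. The lysosomal beta-glucuronidase gene gusb had 6.33, 13.1 and 15.05 CPM in the lowest, median and highest PFOS pools, against 15.08, 20.6 and 22 CPM in DMSO pools (-0.65 ± 0.22, adjusted p = 0.883). The lowest PFOS value was replicate D, and the fold change was -0.53 ± 0.22 without it. The gene cmn (calymmin) had 1.51, 2.29 and 2.64 CPM in PFOS pools, against 2.77, 4.1 and 6.60 CPM in DMSO pools (-0.94 ± 0.34, adjusted p = 0.923). The other 4 were khnyn (-0.55 ± 0.20), specc1lb (-0.49 ± 0.17), the integrin gene itga1 (-0.55 ± 0.30) and the calcium channel gene itpr3 of the endoplasmic reticulum (-0.33 ± 0.14), with adjusted p-values of 0.913 to 0.923. Of the lower genes with a name and the smallest p, fer1l6 (-0.80 ± 0.22), pyroxd2 (-0.60 ± 0.16) and the sphingosine phosphate lyase sgpl1 (-0.59 ± 0.17) had adjusted p-values of 0.374, 0.337 and 0.526.

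The same concentration was also compared with DMSO at 4 dpf. No gene was called there by edgeR's test or by DESeq2, with 390 genes (1.95%) at an unadjusted p under 0.05 in edgeR's test. The pancreas list was low in both groups at that age, at -1.98 ± 1.07 log2 CPM in PFOS heads and -1.88 ± 0.59 in DMSO heads (SD, n = 6 each), and its median log2 fold change was 0.12. Intestine had a median of 0.42 with 30 of 38 higher, and hepatocyte genes had 0.35 with 48 of 57 higher. Glutamate receptor genes had -0.19 with 43 of 47 lower, and GABA and glycine genes had -0.24 with 35 of 43 lower. Of the 62 lists, 46 had medians of opposite sign at the 2 ages, and 34 of these were lower at 5 dpf and higher at 4 dpf. Lists share genes and were measured in the same pools, so these signs are not independent.

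The difference between the ages of the 1.57 µM effect was tested directly. No gene passed in edgeR's test, where 980 genes (4.89%) had an unadjusted p under 0.05 and the lowest adjusted p was 0.742. The chymotrypsin-like ctrl had a difference of -6.79 (unadjusted p = 5.45e-05) and the carboxypeptidase cpa5 had -5.0 (unadjusted p = 8.77e-05). Outside the pancreas list, fer1l6 had a difference of -1.22 and ubash3bb of 0.81, with adjusted p-values of 0.749 and 0.890, and fn1b and cubn had -1.15 and -1.22 (adjusted p = 0.890 each). DESeq2 called 5 genes for this difference, all pancreas enzymes and all lower (prss59.1, cpa5, ctrl, ela2l and amy2a), named after their values were seen. Larvae of the 2 ages came in separate pools that share no library.

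**Figure D5:**
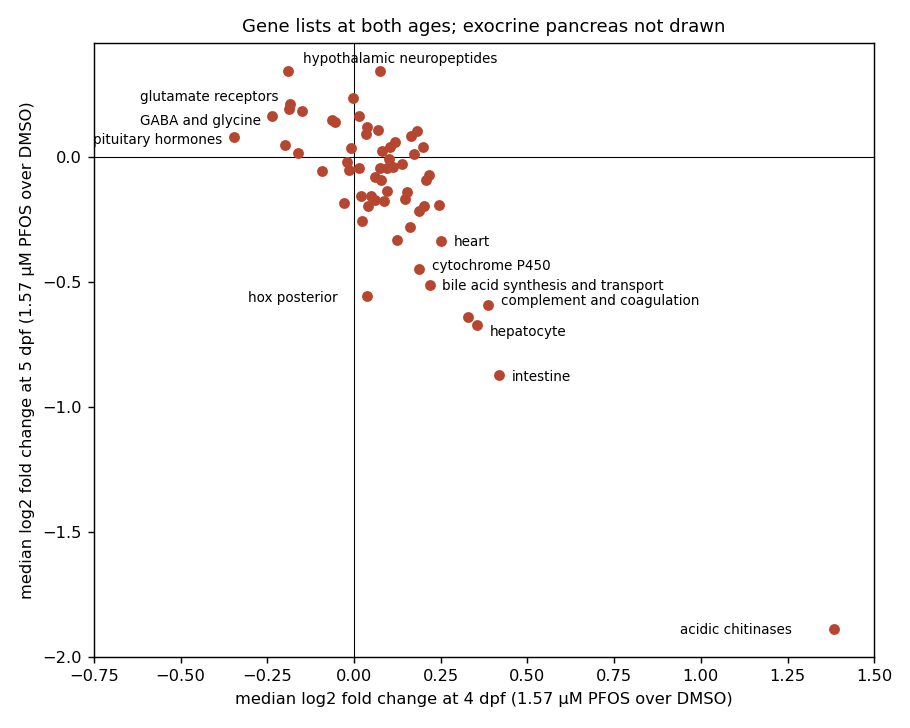
Median log2 fold change of 61 gene lists at 4 dpf (horizontal axis) and 5 dpf (vertical axis), both 1.57 µM PFOS over DMSO of the same age. Each point is a list, some are named, and the exocrine pancreas list (0.12 and -5.26) is not drawn. Intestine, hepatocyte and complement lists lie to the right of 0 at 4 dpf (0.42, 0.35 and 0.39) and below 0 at 5 dpf (-0.87, -0.67 and -0.59).

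The other concentrations at 5 dpf used the same 6 DMSO pools, so their values are set beside those of 1.57 µM without a comparison of pattern. For 0.88, 1.57 and 2.8 µM in this order, the pancreas list had medians of -3.06, -5.26 and -1.38. For cel.2 the log2 fold changes were -4.04, -6.82 and -2.29, and for chia.1 they were -2.46, -2.53 and -1.55. Intestine had medians of -0.58, -0.87 and -0.59, hepatocyte genes had -0.44, -0.67 and -0.33, and glutamate receptors had 0.20, 0.21 and 0.19. No gene was called at 0.88 or 2.8 µM. In the direct test of 1.57 against 2.8 µM, which uses no DMSO pool, edgeR called no gene (lowest adjusted p = 0.539, with 249 genes or 1.24% at an unadjusted p under 0.05) and DESeq2 called none. All 23 pancreas genes were lower at 1.57 than at 2.8 µM in that test, with a median of -3.38.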

How the data were processed

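Per the labels' protocols, polyA libraries were made from 500 ng of RNA per pool with 13 PCR cycles and read once over 75 cycles, in 3 sequencing pools of 16 libraries, with no record in the labels of which pool held which library. The tools named are Partek 8.0.19.0428 with STAR 2.5.3a, and the build is GRCz11, per the submitters' processing notes. The authors deposited expected counts for 25377 genes and log2 values after quantile normalization for 20466 genes.

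Expected counts were rounded, filtered by filterByExpr (20021 genes) and scaled by TMM. All 48 libraries in 8 groups were fitted with edgeR 4.0.16 (R 4.3.3). The fit was also run on simulated counts in which a gene had the same spread in all groups. Such counts cannot check the fit where spread differs between groups. A standard error was obtained by dividing the size of a log2 fold change by the root of its F statistic. Log2 CPM used a prior count of 2. The median standard error was 0.25, and for 76.5% of genes the 95% interval excluded a 2-fold change both ways. Other settings used DESeq2 1.42.0 and limma 3.58.1.

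Named genes were those called, the 10 higher and 10 lower with the smallest p outside the pancreas list (6 and 6 without replicate D) and the 6 and 6 largest without overlap, at a mean of at least 1 log2 CPM, and up to 3 per list by smallest p. Except for called genes and list members, genes with an identifier in place of a name were left out of these choices. All pancreas, endocrine and chitinase members could be named. Members and lists (62 lists, 2393 members, 2007 tested) were chosen with earlier results of these data known.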

Additional observations from a re-analysis of the deposited data

Results flagged for a closer look

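Of 340 groups of 6 pools examined, 26 had a pool whose gap to its nearest neighbour took up more than 0.625 of the group's range, a limit that chance passes in about 5% of groups. Replicate D of the 1.57 µM PFOS pools stood apart in 15 of them. In mean log2 CPM, it was the highest PFOS pool for the joint list of pancreas regulators and protein entry (4.02) and for cartilage (5.55). The same held for skeletal muscle (7.07), ribosomal proteins (8.86) and oxidative phosphorylation (5.91), and it was the lowest PFOS pool for pineal genes (1.62). It was the highest PFOS pool for arxa (4.21), srp14 (1.24), ankrd54 (3.66), ankrd46a (5.87), tmem222a (4.36), sypa (10.02) and opn1lw2 (11.40), and the lowest for gusb (2.68) and ppp1cab (5.08), in log2 CPM.

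Replicate H was the highest PFOS pool for the endocrine pancreas list (3.66). Replicate E was the highest PFOS pool for the carboxypeptidase gene cpa4 (1.28) and the lowest for itpr3 (3.87). Replicate I was the lowest PFOS pool for lrp2a (7.34), acana (6.51) and cmn (0.67). Among DMSO pools, replicate E was the lowest for chia.2 (2.46), acsl5 (-2.20), cyp2x9 (-1.94) and chs1 (0.78), and replicate C was the lowest for rabgef1 (4.33).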

How the results depend on the processing

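The 16 calls at 1.57 µM against DMSO remained 16 with RLE normalization and without a filter, were 18 with a filter of 1 CPM in 6 libraries and 20 with DESeq2, which shared 12 of the 16. No gene was called with only the groups compared, with only those groups and without replicate D, with only the 5 dpf groups, by limma-trend on the deposited log2 values or with sample quality weights (0 in each, with 1191, 1187, 889, 844 and 3161 genes at an unadjusted p under 0.05). Of 4 shared replicate letters, 1 had a correlation of deviations over 0.1 (range -0.21 to 0.26), and 1 pool correlated best with its own letter. The labels do not say what a letter marks, and 4 pairs are too few to decide whether it pairs the pools. With the replicate block 0 genes were called, both with all libraries and with the shared letters only (570 and 631 at an unadjusted p under 0.05). Leaving out 1 of the 12 pools gave 1 to 40 calls, and without the 3 libraries of low correlation 11 were called. For the difference between ages, DESeq2 called 5 and sample quality weights called 2 (fam151a and sec16b, both lower), and all other settings called 0, as did all settings for 1.57 against 2.8 µM. The cause of these changes was not tested. Of the genes described, sst1.1 (0.10 with all pools) reversed without PFOS replicate D or E or DMSO replicate C, with values from -0.060 to 0.31 when 1 pool was left out, and had -0.0041 without the 3 libraries of low correlation. Of all 270 genes that the naming rule covers, 18 changed sign without replicate D, none of them called, among them gh1 (0.70 and -0.11), cryba2b (0.62 and -0.12) and blvrb (0.43 and -0.17). Chosen after seeing the data were the counts without overlap without replicate D and the list medians without DMSO replicate E. Depth limits the hormone genes and all values near or below 1 CPM.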
